A study of Mus musculus with 2 samples.

Results

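Neutrophils were the subject of this comparison. They were picked out by their transcripts from single-cell RNA sequencing of orthotopic mouse gliomas. The tumors grew in C57BL/6J mice from mGSC, a mouse glioblastoma stem cell line that is Trp53+/- and Nf1+/-, and both groups carried this same line. Mice received either the vehicle or Xevinapant every day, and cells were taken right after treatment. Xevinapant is an oral SMAC mimetic, a drug that binds inhibitor of apoptosis proteins (IAPs). The labels list 4 tumors per group, and each group was deposited as 1 pool with 4 cell matrices. The mice were young adults, and the alleles are those of the implanted line. The study's question here was how the drug altered the immune cells of the tumor.

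A barcode was called a neutrophil when at least 3 of the 6 genes S100a8, S100a9, Retnlg, Csf3r, Cxcr2 and Il1r2 had a unique molecular identifier (UMI, 1 counted RNA molecule), with at most 2 UMIs of C1qa, C1qb and C1qc and at most 3 of Olig1, Olig2 and Ptprz1. Of 54574 barcodes that passed the quality limits, 332 were neutrophils, 57 from vehicle tumors and 275 from Xevinapant tumors. Because measured values chose these cells, their share and their marker levels are given as a description.

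Neutrophils are short-lived granulocytes made in the bone marrow. They fill primary, secondary and gelatinase granules in turn while they mature, so mature cells have stopped making most granule proteins. In tissue they sense chemoattractants through receptors such as Cxcr2, release proteases and cytokines, and rely mainly on glycolysis. In tumors they are known to take on long-lived, hypoxia-adapted states and states marked by type I interferon response genes.

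Some facts about the libraries bear on every comparison. The pool and the label's batch date coincide with treatment, and the effects of the drug and of the batch cannot be told apart. The labels give total RNA for the vehicle and polyA RNA for Xevinapant, and the Xevinapant matrices carry the vehicle's name, so the label of the sample was followed. The matrices were compared by the expression of their tumor barcodes. A total of 3 pairs (vehicle 1 and 3, Xevinapant 1 and 2, Xevinapant 3 and 4) differed by 1.14 to 2.21 times the sampling error. The other 9 pairs within a group differed by 3.90 to 7.28 times. Cell composition did not part them as clearly, since vehicle 2 and 4, which were not joined, differed by 1.51 (chi-square per degree of freedom) and vehicle 1 and 3 by 2.65. Each of the 3 pairs was counted as 1 sample, which leaves 3 vehicle and 2 Xevinapant samples. Neutrophil expression did not enter that check, and the median genes per neutrophil were 580 in vehicle 1 and 732.5 in vehicle 3. The study's methods speak of samples of individual mice, but nothing ties a matrix to a mouse, so the tests measure the spread between samples, which may be technical. The pools shared 1413 whole barcodes, all between matrices of the same number, and no neutrophil barcode was shared.

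The label was checked with genes the rule did not use. Mmp9, the gelatinase of neutrophil granules, was detected in 76.2% of neutrophils, 3.69% of monocytes, 2.66% of microglia and 2.04% of tumor barcodes. Asprv1, a protease gene of mature neutrophils, was detected in 33.7% of neutrophils and 0.410% of monocytes. Hdc, the histamine-making enzyme, was detected in 18.1% of neutrophils and 0.410% of monocytes. These 3 were commonest in neutrophils among the 4 classes although the median neutrophil held 1442.5 UMIs, against 5176.5 in monocytes and 15410.5 in tumor barcodes. Other genes listed as neutrophil markers did not set the cells apart. Mmp8 was detected in 43 of the 332 neutrophils and 21.7% of monocytes, Cd177 in 3.31% and 10.2%, and G0s2 in 34.9% of neutrophils and 54.3% of the deeper tumor barcodes. Among the markers of the rule, S100a9 was detected in 94.6% of neutrophils, Csf3r in 94.9%, S100a8 in 89.5%, Il1r2 in 70.2%, Cxcr2 in 53.9% and Retnlg in 15.1%.

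Primary granule transcripts were rare and those of the secondary granule varied by gene. Mpo and Elane, proteins of the primary granule, and Camp, of the secondary granule, had 0 UMIs in all 332 neutrophils, which allows a share of cells with a UMI of up to 0.904% each. Ltf, lactoferrin of the secondary granule, was detected in 9.34% and Lcn2, of the same granule, in 40.4%. Ly6g, the surface antigen most often used to sort mouse neutrophils, was detected in 16 cells (4.82%), in no monocyte or microglial cell, and in 0.0212% of tumor barcodes. The usual sorting marker was therefore rarely detected, at a median of 1442.5 UMIs per neutrophil. How well the assay captures it was not tested. The calgranulins, Csf3r and Cxcr2 were used by the rule, and of the genes it did not use, Mmp9 was the one most neutrophils carried and few other barcodes did.

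**Figure D1:**
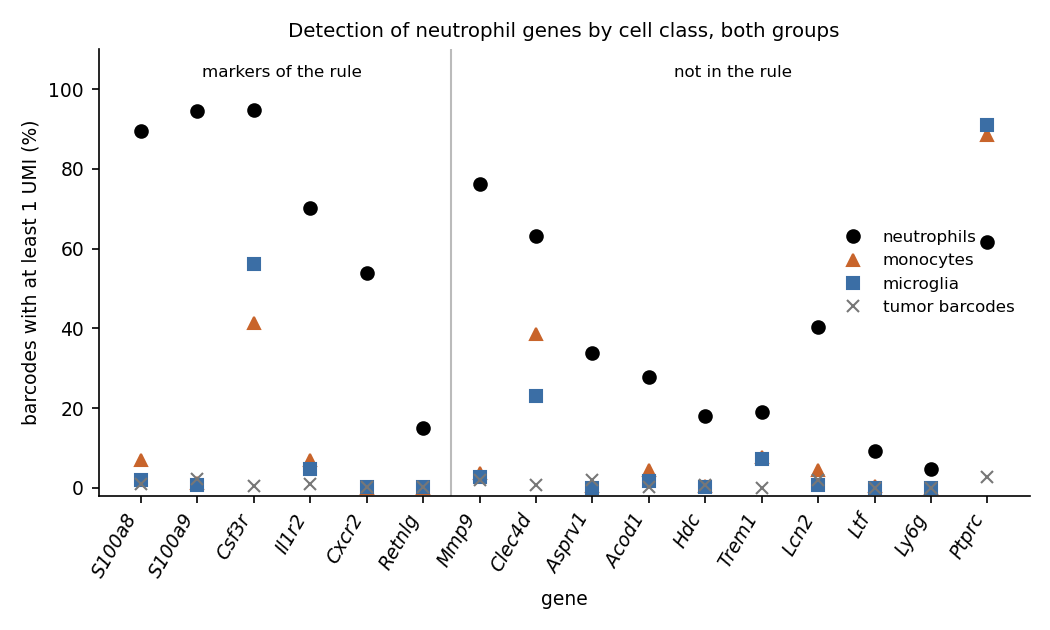
Share of barcodes with at least 1 UMI (y axis, percent) for 16 genes (x axis) in neutrophils, monocytes, microglia and tumor barcodes of both groups together. Csf3r and Ptprc were also seen in other immune classes, whereas Mmp9 lay at 76.2% in neutrophils and below 4% in the other classes drawn.

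Transcripts listed for other cell types were present at low levels, apart from those that myeloid cells share. All 7 natural killer markers listed and 6 B cell markers were at 0 in neutrophils, as were the eosinophil genes Prg2, Epx and Il5ra. Siglecf, a sialic acid receptor of eosinophils that tumor neutrophils can also carry, was detected in 21.4% of neutrophils and 4.23% of microglia. The summed level of the tumor marker list was 516 to 1186 CPM (a gene's UMIs scaled to 1000000 UMIs over all neutrophils of that sample), or 8.15% of its level in tumor barcodes. Macrophage genes summed to 1833 to 3245 CPM in vehicle and 1915 and 3925 CPM in Xevinapant, and at least 1 of them was detected in 81.9% of neutrophils. Monocyte genes summed to 370, 216 and 406 CPM in vehicle and 1630 and 3001 CPM in Xevinapant, without overlap. Red blood cell genes summed to 129394 CPM in vehicle 4 and to at most 231 CPM in the other samples. The monocyte and red blood cell values came largely from the few barcodes described with those genes further on.

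Barcodes near the limits of the rule were examined once. The 89 neutrophils with exactly 3 markers held a mean of 2.81 of 8 further neutrophil markers, and 78.7% of them held at least 2. The 8 were Hdc, G0s2, Acod1, Trem1, Clec4d, Clec4e, Mxd1 and Mmp9. Of these, G0s2 and Mxd1 were also detected in 54.3% and 29.5% of tumor barcodes, and Clec4d in 38.5% of monocytes. The 70 barcodes with exactly 2 markers, left out by the rule, held a mean of 1.77, and 48.6% held at least 2. The limit of 3 on tumor genes left out 29 barcodes, whose median was 21749 UMIs.

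Neutrophils were a larger share of the cells in the Xevinapant samples. Per matrix, they made up 0.323%, 0.112%, 0.506% and 0.0769% of kept barcodes in vehicle 1 to 4. In Xevinapant 1 to 4 they made up 1.86%, 2.58%, 0.558% and 0.470%. The lowest Xevinapant matrix thus lay just under the highest vehicle matrix, and Xevinapant 1 and 2 stood well above the rest. Counting error alone gave 95% Wilson intervals of 0.0429% to 0.138% for vehicle 4 and 2.16% to 3.09% for Xevinapant 2.

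Over the joined samples, the share was 0.201% ± 0.186 (SD, n = 3) in vehicle and 1.37% ± 1.21 (SD, n = 2) in Xevinapant, a difference of 1.17 percentage points and a ratio of 6.80. The joined samples did not overlap, with 0.414%, 0.112% and 0.0769% against 2.22% and 0.514%. The exact two-sided permutation p was 0.1, the smallest that 3 against 2 samples can give. The size rested on 1 sample, since without Xevinapant 1 and 2 the difference was 0.313 points and the ratio 2.56. Xevinapant neutrophils were also more deeply read, with a median of 1540 UMIs against 1140. When barcodes with at least 1000 UMIs were thinned to 1000, 270 neutrophils were left, with shares of 1.27% and 0.148%. Shallower barcodes were dropped, so that 232 of 275 Xevinapant and 38 of 57 vehicle neutrophils stayed. The step therefore cannot settle how far depth bears on the share.

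Among immune barcodes alone, the groups overlapped. Neutrophils made up 5.53%, 2.45% and 1.60% of immune barcodes in the vehicle samples and 11.2% and 4.97% in the Xevinapant samples. The means were 3.19% ± 2.07 (SD, n = 3) and 8.10% ± 4.43 (SD, n = 2), a difference of 4.91 points (exact permutation p = 0.3). The share of tumor barcodes that also held at least 3 neutrophil markers was 0.0517% in vehicle and 0.118% in Xevinapant. A share of recovered barcodes does not tell more neutrophils from fewer other cells.

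**Figure D2:**
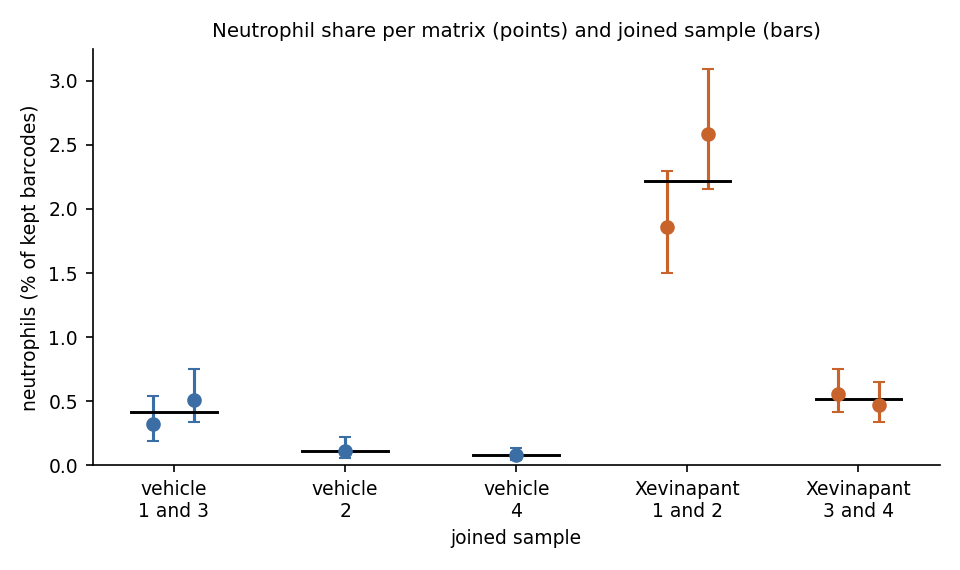
Neutrophils as a percent of kept barcodes (y axis) in each of the 8 matrices (points, with 95% Wilson intervals for counting error) and the mean of each of the 5 joined samples (bars, x axis). Xevinapant 1 and 2 lay at 1.86% and 2.58%, while Xevinapant 3 and 4 lay at 0.558% and 0.470%, next to vehicle 3 at 0.506%.

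To ask which genes differed within neutrophils, UMIs were summed over the neutrophils of each sample and fitted with edgeR's quasi-likelihood test. Vehicle 2 held 8 neutrophils, under the minimum of 10, and was dropped from the fit, which therefore set 2 samples against 2. Its values are still printed. The vehicle neutrophils held 67367 UMIs in all and the Xevinapant neutrophils 478720, so that 1 UMI was worth 23.1, 108 and 67.6 CPM in the vehicle samples and 3.31 and 5.67 CPM in the Xevinapant samples.

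No gene passed an adjusted p of 0.05 (edgeR's quasi-likelihood test) among 2666 tested, 0% in either direction. At an unadjusted p under 0.05 there were 93 genes higher in Xevinapant (3.49%) and 46 lower (1.73%), or 5.21% in either direction. DESeq2 also called 0 genes, with 61 at an unadjusted p under 0.05. At this depth a difference below significance does not show that a gene was at the same level. The values below are descriptions of size, direction and overlap. Those given without vehicle 1 and 3 come from a fit where the median of all genes was 0.59, against 0.08 in the main fit.

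The interferon response genes lay lower in Xevinapant neutrophils. Of 33 tested, 30 had a log2 fold change below 0 and 3 above. Their median was -0.72, against 0.08 for all genes tested. Without vehicle 1 and 3 it was -0.10, in a fit where the median of all genes was 0.59. The groups did not overlap over the 4 fitted samples for 14 of the 33 on the lower side and 1 on the higher side, where the background over all genes was 14.8% and 21.5%. With vehicle 2 counted these were 8 and 1, against a background of 7.05% and 13%.

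Rsad2 (viperin), an antiviral enzyme, stood at 3256, 1725 and 4327 CPM in the vehicle samples and at 529 and 1622 CPM in the Xevinapant samples. All 3 vehicle samples lay above both Xevinapant samples, though vehicle 2 only just. The log2 fold change was -1.80 ± 0.58 (SE; unadjusted p = 0.00796, adjusted p = 0.642, edgeR). It was -1.13 without Xevinapant 1 and 2 and -2.77 without Xevinapant 3 and 4. Rsad2 was detected in 43.9% of vehicle and 32.7% of Xevinapant neutrophils, with cells pooled over samples.

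Isg15, a ubiquitin-like modifier, stood at 3395, 431 and 3651 CPM in vehicle and 923 and 1685 CPM in Xevinapant. Vehicle 2, with 4 UMIs, lay under both Xevinapant samples, and the other vehicle samples lay above them. The fitted log2 fold change was -1.43 ± 0.50 (SE; unadjusted p = 0.0132, adjusted p = 0.751, edgeR). Without the 1 hemoglobin-rich barcode of vehicle 4 it was -0.90. Ifit3, a sensor of foreign RNA, stood at 2240, 862 and 1352 CPM against 420 and 1157 CPM, and vehicle 2 lay between the Xevinapant samples.

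Slfn4, a Schlafen gene of myeloid cells, was the member most neutrophils carried, detected in 67.2% of them. It stood at 5612, 3665 and 3583 CPM in vehicle and 1948 and 3091 CPM in Xevinapant, without overlap (log2 fold change -0.86 ± 0.54, SE, and -0.31 without vehicle 1 and 3). Cmpk2, a mitochondrial nucleotide kinase, stood at 231, 216 and 406 CPM against 66.1 and 164 CPM, also without overlap. Bst2 (tetherin), which holds viruses at the cell surface, was the 1 member that lay higher without overlap, with 254, 216 and 135 CPM against 304 and 403 CPM.

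The list as a whole showed the same spread. Its members summed to 33072, 18650 and 27380 CPM in the vehicle samples and 13369 and 20947 CPM in the Xevinapant samples, so that vehicle 2 lay between the Xevinapant samples. By matrix, the 4 Xevinapant values ran from 12215 to 22166 CPM, and vehicle 1, 3 and 4 lay above all of them. The median neutrophil gave 1.98% of its UMIs to these genes in vehicle and 0.955% in Xevinapant. The ratio of the sample means was 0.651 in neutrophils, 1.08 in monocytes, 1.04 in microglia, 0.954 in macrophages and 1.19 in tumor barcodes, and the groups overlapped in every class. The difference between neutrophils and monocytes in treatment effect was -0.23 (log2) for Rsad2 and -0.93 for Isg15, neither called by the interaction test. On simulated data that test recovered 7 of 198 differences of 4-fold, so a missing call does not show equal effects.

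The promoters of these genes are shown because most members lay lower and interferon genes are known for a shared sequence element. The interferon-stimulated response element was searched as GAAA, any 2 bases and GAAA, on both strands in the 250 bases before each RefSeq start (GRCm38.p6). It was found in 17 of 31 interferon genes with a promoter sequence (54.8%), in 936 of 27025 genes in all (3.46%), and in 89 of 2158 genes tested in neutrophils (4.12%). Each window below is written 5′ to 3′ on the gene's strand, with 1 match in capitals. Where the capitals open with TTTC, the match lies on the opposite strand. Isg15 held 3 overlapping matches, and the capitals mark the one 72 to 63 bases before its start, at chr4:156200856-156200915. Ifit3 held a further match 156 to 147 bases before its start, and Bst2 a further one 130 to 121 bases before its start. The Rsad2 window is chr12:26456538-26456597, the Ifit3 window chr19:34583382-34583441 and the Bst2 window chr8:71537562-71537621.
Isg15: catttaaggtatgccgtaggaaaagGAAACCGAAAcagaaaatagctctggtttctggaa
Rsad2: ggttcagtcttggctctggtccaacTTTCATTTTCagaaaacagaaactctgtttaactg
Ifit3: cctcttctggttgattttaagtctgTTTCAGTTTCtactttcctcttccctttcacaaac
Bst2: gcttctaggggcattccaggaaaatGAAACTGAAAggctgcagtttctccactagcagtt
Cmpk2 and Slfn4 had no match in this window. The element was present both in members that lay lower and in Bst2, which lay higher, and binding was not measured.

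Glycolysis genes lay higher in Xevinapant neutrophils. Of 19 tested, 18 had a log2 fold change above 0, with a median of 0.53. Without vehicle 1 and 3 it was 1.17, in a fit where the median of all genes was 0.59. The groups did not overlap for 9 on the higher side over the 4 fitted samples and for 8 over all 5, against a background of 21.5% and 13%. The list summed to 10485, 7654 and 6490 CPM in vehicle and 15650 and 11452 CPM in Xevinapant, without overlap. By matrix the groups did overlap, with Xevinapant 3 at 8846 CPM under vehicle 1 and 3. The ratio of means was 1.65 in neutrophils and 1.10 to 1.21 in monocytes, microglia, macrophages and tumor barcodes, where the groups overlapped. The median neutrophil gave 0.804% of its UMIs to the list in vehicle and 1.28% in Xevinapant.

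Ldha, which turns pyruvate into lactate, stood at 924, 970 and 406 CPM in vehicle and 2034 and 1424 CPM in Xevinapant. Both Xevinapant samples lay above all 3 vehicle samples (log2 fold change 1.28 ± 0.49, SE; unadjusted p = 0.0213, adjusted p = 0.793, edgeR). The log2 fold change was 2.27 without vehicle 1 and 3 and 0.91 without vehicle 4. With cells pooled over samples, Ldha was detected in 54.4% of vehicle neutrophils and 74.5% of the more deeply read Xevinapant neutrophils. Tpi1, triose phosphate isomerase, stood at 416, 431 and 67.6 CPM against 847 and 874 CPM (log2 fold change 1.55 ± 0.55, SE, and 3.84 without vehicle 1 and 3, since vehicle 4 held 1 UMI). Gpi1, which makes fructose 6-phosphate, stood at 254, 216 and 203 CPM against 757 and 448 CPM (log2 fold change 1.35 ± 0.52, SE). None of the 3 overlapped between groups, and they were among the 8 of 19 tested members without overlap on the higher side over all 5 samples. On that side, 13% of all genes tested did not overlap. Members shown beyond the best expressed were chosen after their values were seen.

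Hypoxia response genes showed a smaller shift by their median, though a like one by their summed level. Of 22 tested, 16 lay above 0 and 6 below, with a median of 0.39 (0.99 without vehicle 1 and 3), and 6 did not overlap on the higher side over all 5 samples, where 13% of all genes did not. Ero1l, an oxidase of the endoplasmic reticulum that hypoxia is known to induce, stood at 993, 647 and 608 CPM in vehicle and 2407 and 1679 CPM in Xevinapant. Its groups did not overlap (log2 fold change 1.30 ± 0.48, SE; unadjusted p = 0.0173, adjusted p = 0.784, edgeR). The log2 fold change was 1.93 without vehicle 1 and 3 and 1.05 without vehicle 4. Egln1, the oxygen sensor that marks HIF for decay, stood at 208, 108 and 270 CPM against 757 and 340 CPM. Ndrg1, another hypoxia-induced gene, had only 5 vehicle UMIs, against 134 in Xevinapant. The list summed to 12564, 6576 and 7301 CPM in vehicle and 15832 and 12825 CPM in Xevinapant, and the highest vehicle sample lay just under the lower Xevinapant sample. By matrix, Xevinapant 3 at 10547 CPM lay under vehicle 1 and 3. The ratio of means was 1.63 in neutrophils. It was 1.33 in monocytes, 1.30 in macrophages, 1.24 in tumor barcodes and 1.15 in microglia, where the groups overlapped.

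**Figure D3:**
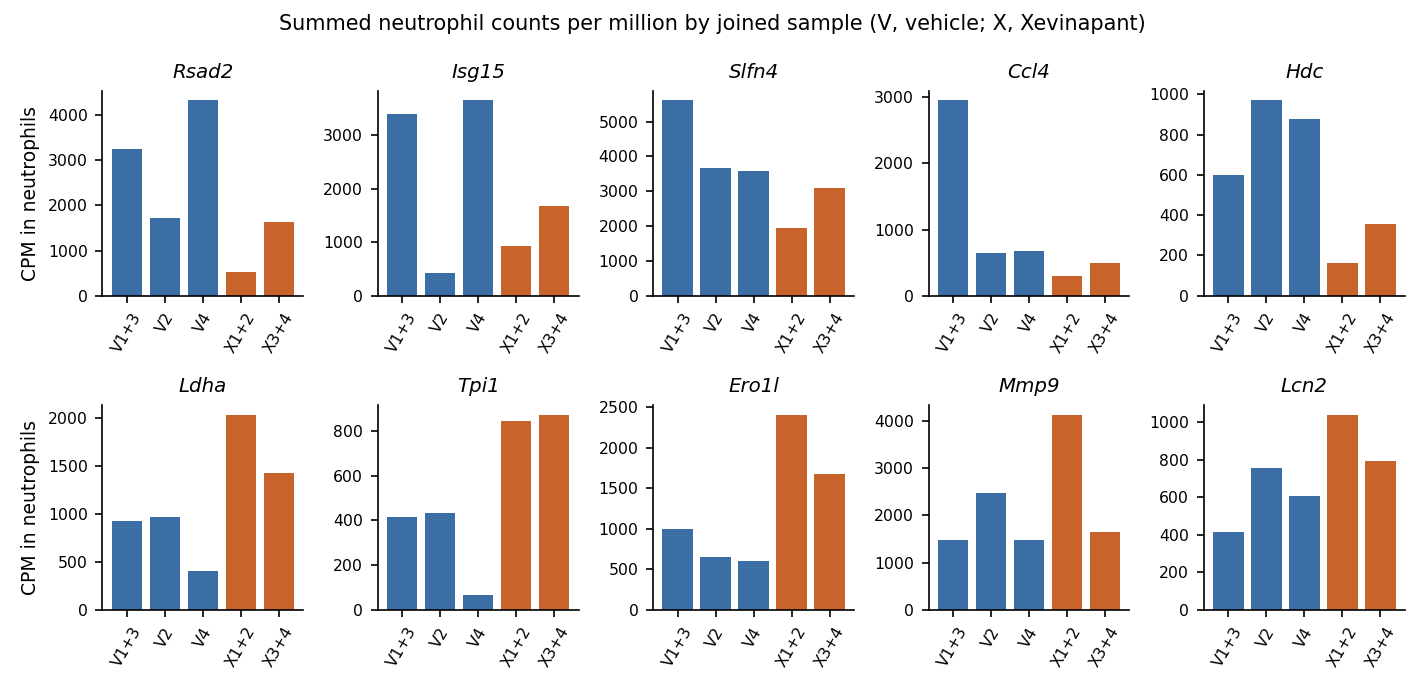
CPM of 10 genes in neutrophils (y axes, each with its own scale from 0) in the 5 joined samples (x axes; V, vehicle, X, Xevinapant). Rsad2, Slfn4, Ccl4 and Hdc lay higher in every vehicle sample, Ldha, Tpi1, Ero1l and Lcn2 lay higher in both Xevinapant samples, and Isg15 and Mmp9 overlapped through vehicle 2.

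Gelatinase granule genes lay somewhat higher in Xevinapant neutrophils. Of 7 gelatinase granule genes tested, 6 had a log2 fold change above 0, with a median of 0.94. It was 0.37 without Xevinapant 1 and 2, 0.54 without vehicle 1 and 3 and 1.52 without vehicle 4. The list summed to 2864, 4851 and 3718 CPM in vehicle and 6653 and 5309 CPM in Xevinapant. By matrix the lowest Xevinapant value, 4956 CPM, lay just above vehicle 2 at 4851 CPM. Other myeloid classes carried the list too, with 4625 CPM in monocytes, 4769 in microglia and 5199 in macrophages, against 5809 in neutrophils. Lyz2, a member, had 58.9% of its Xevinapant UMIs in the 5 monocyte-marked barcodes described below. Its log2 fold change of 1.61 became 0.29 without them. Mmp9 had 64, 23 and 22 UMIs in vehicle and 1251 and 290 UMIs in Xevinapant, or 1478, 2480 and 1487 CPM against 4137 and 1645 CPM. Xevinapant 1 and 2 stood far above the rest, and vehicle 2 lay above Xevinapant 3 and 4 (log2 fold change 0.95 ± 0.53, SE; unadjusted p = 0.0963, adjusted p = 0.906, edgeR). Without Xevinapant 1 and 2 the log2 fold change was 0.25. Hp, haptoglobin, stood at 162, 862 and 744 CPM against 942 and 845 CPM, and vehicle 2 lay within the Xevinapant range.

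Among secondary granule genes, 4 were tested, of which 3 lay above 0 and 1 below. Ltf was detected in 15.8% of vehicle and 8% of Xevinapant neutrophils, with cells pooled over samples. Chil3, described further on, had 50.5% of its Xevinapant UMIs in the 5 monocyte-marked barcodes. Lcn2 (lipocalin 2), which withholds iron from bacteria, stood at 416, 755 and 608 CPM against 1042 and 794 CPM, without overlap. Prtn3 was the 1 primary granule gene with any UMI, 16 and 2 in the Xevinapant samples and 0 in vehicle.

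Surface and enzyme genes of neutrophils lay lower in Xevinapant. Of 15 tested, 12 had a log2 fold change below 0, with a median of -0.62 (0.05 with at least 4 markers required, -0.27 without vehicle 1 and 3), and 4 did not overlap on the lower side over all 5 samples, where 7.05% of all genes did not. Hdc stood at 600, 970 and 879 CPM in vehicle and 162 and 357 CPM in Xevinapant. All vehicle samples lay above both Xevinapant samples (log2 fold change -1.46 ± 0.52, SE; unadjusted p = 0.0139, adjusted p = 0.751, edgeR). Trem1, a receptor that amplifies inflammation, stood at 323, 216 and 203 CPM against 126 and 119 CPM. Acod1, which makes itaconate, stood at 1940, 539 and 1961 CPM against 354 and 1066 CPM, with vehicle 2 between the Xevinapant samples. Against the direction of the list, Lrg1, a secreted glycoprotein, lay higher and stood at 185, 216 and 203 CPM against 595 and 493 CPM, without overlap (log2 fold change 1.52 ± 0.51, SE; unadjusted p = 0.0104, adjusted p = 0.734, edgeR).

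Cytokine and chemokine genes were mixed. Of 14 tested, 11 had a log2 fold change below 0 and 3 above, with a median of -0.48, which became 1.14 without vehicle 1 and 3. Ccl4, a chemokine for monocytes and T cells, stood at 2956, 647 and 676 CPM in vehicle and 301 and 488 CPM in Xevinapant, without overlap. Its vehicle level was set largely by vehicle 1 and 3, which held 128 of the 144 vehicle UMIs (log2 fold change -2.27 ± 0.57, SE; unadjusted p = 0.00147, adjusted p = 0.385, edgeR). Csf1, the macrophage growth factor, stood at 1062, 647 and 541 CPM against 255 and 488 CPM, also without overlap. Il1b, the inflammatory interleukin, stood at 1917, 3773 and 5138 CPM against 1706 and 2099 CPM, and the groups overlapped. Cxcl2, a ligand of Cxcr2, overlapped as well, with 6259, 1401 and 879 CPM against 3469 and 4203 CPM.

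The rule's own receptors and calgranulins gave the log2 fold changes -0.14 for S100a8, 0.01 for S100a9, -0.15 for Csf3r, -0.41 for Cxcr2, -0.08 for Il1r2 and 1.13 for Retnlg. They chose the cells and are not read further.

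The direct targets of Xevinapant were sparsely detected in neutrophils. Birc3 (cIAP2) was detected in 20.5% of neutrophils, 26.6% of monocytes and 16.2% of tumor barcodes. Birc2 (cIAP1) was detected in 3.61% of neutrophils and 43.8% of tumor barcodes, and Xiap in 3.01% and 27.9%, with the difference in depth given above. Birc3 had 4, 0 and 3 UMIs in vehicle and 59 and 15 UMIs in Xevinapant (log2 fold change 0.24 ± 0.71, SE). Birc2, with 12 UMIs in all, and Xiap, with 10, were too low to test.

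Other survival genes were better covered. Mcl1, the BCL2 relative on which neutrophil survival is known to depend, stood at 1640, 2048 and 1690 CPM in vehicle and 2609 and 2275 CPM in Xevinapant. The groups did not overlap, and the log2 fold change was 0.55 ± 0.46 (SE; unadjusted p = 0.251, adjusted p = 0.997, edgeR). Of 18 genes of the cell death and IAP list tested, 9 lay above 0 and 9 below, with a median of 0.00. Of 17 NF-kB response genes, 12 lay above 0 and 5 below, with a median of 0.19.

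The lists given next had medians from -0.43 to 0.36. Outside that range, among others, all 4 cell cycle genes tested lay below 0 (median -0.72), and 4 of 6 macrophage genes above (median 0.40). Of 12 genes of the NADPH oxidase and extracellular trap list, 10 lay above 0 (median 0.36), and of 51 actin genes 35 did (median 0.16). Of 20 pattern recognition and Fc receptor genes, 15 lay below 0 (median -0.43, and 0.15 without vehicle 1 and 3). On the lower side, 8 did not overlap over the 4 fitted samples (14.8% of all genes) and 4 over all 5 (7.05%). The summed list had a ratio of means of 0.871 in neutrophils, 0.872 in macrophages and 0.905 in microglia, each without overlap. In monocytes it was 1.18 and in tumor barcodes 1.57. Genes of chemoattractant receptors and adhesion divided into 7 above and 8 below (median -0.09), and 9 of 11 genes tied to tumor-adapted or ageing neutrophils lay below (median -0.38, and 0.35 without vehicle 1 and 3). Of 13 immunosuppression genes, 6 lay above 0 and 7 below. Of 22 genes that rise with tissue dissociation, 15 lay above 0 (median 0.20).

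**Figure D4:**
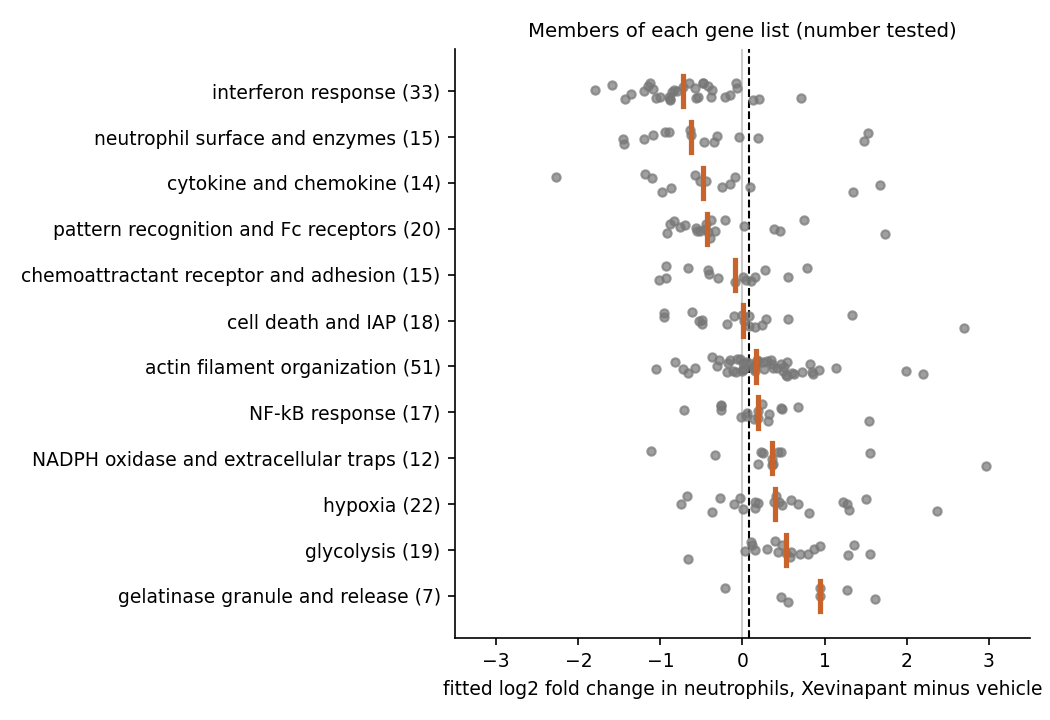
Fitted log2 fold changes in neutrophils, Xevinapant minus vehicle (x axis), for the tested members of 12 gene lists (points, with the number tested beside each list on the y axis), the median of each list (thick bar) and of all genes tested (dashed line, 0.08); the x axis stops at 3.5 on each side. The interferon median lay at -0.72 and the gelatinase granule median at 0.94.

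The genes with the smallest p-values on the higher side in Xevinapant neutrophils came largely from a few barcodes. In Xevinapant, 5 neutrophil barcodes held at least 2 monocyte markers, and none did in vehicle. These 5 held 2563 to 12640 UMIs each, against a median of 1516 in the other 270, and 9.10% of all Xevinapant neutrophil UMIs. They held 97.6% of the Xevinapant neutrophil UMIs of F13a1, 95.2% of Fn1, 88.0% of Arg1 and 83.6% of Ahnak. All 4 genes stood at 781 to 4417 CPM in the monocyte class and at 6.89 to 57.5 CPM in the other 270 neutrophils. F13a1 is itself among the markers that picked these barcodes, so its share was largely set by that choice. Whether they were neutrophils joined to a monocyte in 1 droplet was not tested. Without them, none of these 4 genes passed the filter on low counts, nor did Chil3 and Ctsc.

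Arg1 (arginase 1), a suppressive enzyme of myeloid cells, had 0 UMIs in all 3 vehicle samples and 146 and 63 UMIs in Xevinapant. That is at least 9.80-fold higher against a floor of 3 counts over the vehicle group (adjusted p = 0.125, edgeR), but outside the 5 barcodes only 25 UMIs in 13 cells remained. Fn1, fibronectin, had 0, 0 and 2 UMIs against 260 and 173 UMIs, a ratio of 30.5 with a counting interval of 8.38 to 252, and 21 UMIs remained outside the 5 barcodes. F13a1, clotting factor XIII, had 0 vehicle UMIs and 52 and 72 UMIs, at least 5.82-fold higher, of which 3 remained. Ahnak had 1 vehicle UMI and 73 in Xevinapant, of which 12 remained.

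Chil3 (Ym1), a chitinase-like protein and a member of the secondary granule list, was spread more widely. It had 0 UMIs in vehicle and 99 and 121 UMIs in Xevinapant, at least 10.3-fold higher (adjusted p = 0.125, edgeR). The 5 barcodes held 50.5% of these UMIs, and the other 109 lay in 47 of the other 270 neutrophils. Ctsc (cathepsin C), which activates granule proteases, had 0, 1 and 0 UMIs against 74 and 55 UMIs, a ratio of 18.2 with a counting interval of 3.20 to 722, and 55 UMIs in 33 cells lay outside the 5. Hspa1a, a heat shock gene, had 0 vehicle UMIs and 64 and 28 in Xevinapant (at least 4.32-fold higher), but these came from 5 cells.

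A further group of higher genes rested less on those barcodes. Tln1 (talin), which links integrins to actin, stood at 162, 323 and 135 CPM in vehicle and 582 and 635 CPM in Xevinapant, without overlap (log2 fold change 2.0 ± 0.53, SE, and 1.75 without the 5 barcodes; adjusted p = 0.408, edgeR). Plec (plectin), a cytoskeletal linker, stood at 69.3, 108 and 67.6 CPM against 364 and 335 CPM. Emb (embigin), a partner of lactate transporters, stood at 46.2, 108 and 135 CPM against 377 and 374 CPM. Arid3a, a transcription factor, stood at 46.2, 108 and 67.6 CPM against 331 and 227 CPM. These 4 genes were chosen for no overlap among the fitted samples, and vehicle 2, which the choice did not use, also lay below both Xevinapant samples. The same held for 346 of the 572 tested genes without overlap on the higher side. Plec, Emb and Arid3a had only 4 or 5 vehicle UMIs each. Nos2, inducible nitric oxide synthase, had 6 vehicle UMIs and 173 in Xevinapant, with 46.2, 323 and 67.6 CPM against 225 and 596 CPM, and vehicle 2 lay between the Xevinapant samples.

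**Figure D5:**
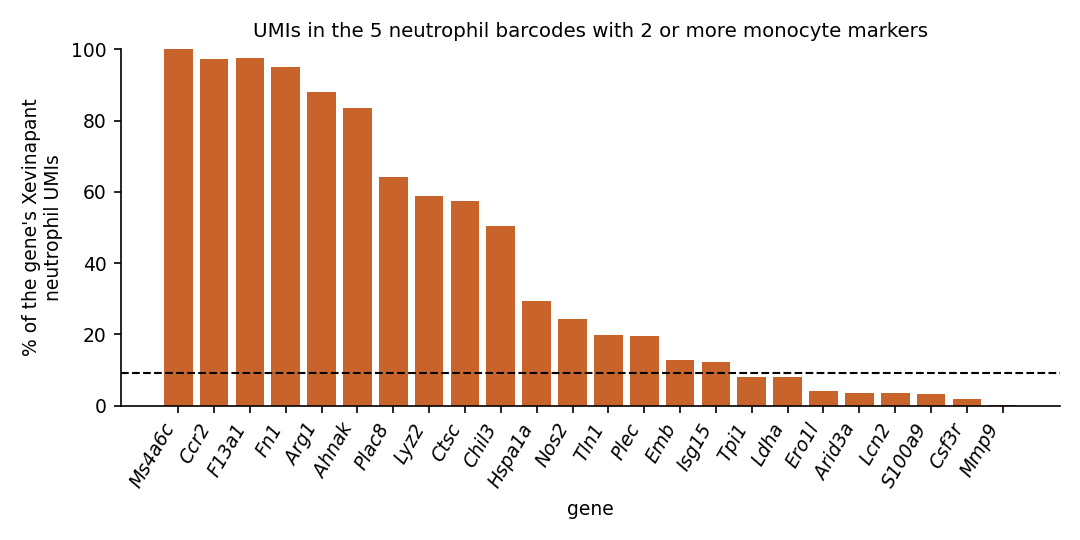
Percent of each gene's Xevinapant neutrophil UMIs (y axis) that lay in the 5 barcodes with at least 2 monocyte markers, for 24 genes (x axis); the dashed line is their share of all Xevinapant neutrophil UMIs, 9.10%. The bars of F13a1, Fn1, Arg1 and Ahnak exceed 80%, whereas Ero1l, Ldha, Lcn2 and Mmp9 lie below the line.

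Genes that lay lower in Xevinapant neutrophils included 2 hemoglobin genes, and these came from 1 barcode. Hba-a2 had 5, 0 and 495 UMIs in vehicle and 11 and 7 in Xevinapant, and Hbb-bs 5, 0 and 911 against 31 and 4. A single barcode of vehicle 4 held 1882 hemoglobin UMIs, and without it the Hbb-bs log2 fold change was -0.61 in place of -8.92.

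The other lower genes were spread over more cells. Entpd1 (CD39), which breaks down extracellular ATP, stood at 531, 539 and 946 CPM in vehicle and 162 and 227 CPM in Xevinapant, without overlap (log2 fold change -1.83 ± 0.48, SE; unadjusted p = 0.00198, adjusted p = 0.385, edgeR). It was detected in 40.4% of vehicle and 22.2% of Xevinapant neutrophils, with cells pooled over samples. Il1rap, the shared subunit of interleukin 1 receptors, stood at 300.2, 108 and 270.4 CPM against 79.4 and 79.4 CPM. Alcam, an adhesion molecule, stood at 346, 431 and 608 CPM against 162 and 125 CPM. These 3 genes were chosen for no overlap among the fitted samples, and vehicle 2 also lay above both Xevinapant samples. The same held for 188 of the 395 tested genes without overlap on the lower side. Il1rap had 1 UMI in vehicle 2.

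Slc7a11, the cystine transporter, stood at 462, 108 and 406 CPM against 142 and 119 CPM, where vehicle 2 with 1 UMI lay lowest. Mob3a and Ncoa4, the latter a ferritin receptor, had log2 fold changes of -1.51 ± 0.47 (SE) and -1.70 ± 0.57 (SE), but Ncoa4 stood at -0.92 without the hemoglobin-rich barcode. Rgs1, which dampens chemokine receptor signals, had 19, 0 and 11 UMIs in vehicle and 4 and 18 in Xevinapant (log2 fold change -3.40 ± 0.73, SE; adjusted p = 0.171, edgeR), from 6 vehicle and 10 Xevinapant cells. Over 14 alternatives its log2 fold change ran from -5.24 to -0.72. Inhba, an activin subunit, came from 3 vehicle and 11 Xevinapant cells (log2 fold change -2.46 ± 0.65, SE). The vehicle levels of Rgs1 and Inhba thus rested on few cells.

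Whether neutrophils differed from monocytes in their response was tested with an interaction term over 4991 genes in the same 4 samples. It called 14 genes at an adjusted p of 0.05, 3 with a higher treatment effect in neutrophils (0.0601%) and 11 with a lower one (0.22%). Chil3, Ctsc and Arg1 made up the higher side, and the lower side was made up of Cxcl2, Rgs1, Inhba, 3 collagen genes, 3 hemoglobin genes, Alas2 and Car2. Fibroblast and mural genes summed to 16262 CPM in the monocyte barcodes, against 282 CPM in neutrophils. Dendritic cell genes summed to 17986 against 328 CPM. Whether the monocyte class held other cells was not tested. Cxcl2 had 1 and 0 UMIs in vehicle monocytes and 454 and 120 in Xevinapant monocytes, whereas neutrophils carried it in both groups, and the adjusted p of the difference between the classes was 0.00153 (edgeR). The test called 0 genes without vehicle 1 and 3 or without vehicle 4, and 17 without the 5 monocyte-marked barcodes, which no longer included Arg1 and Ctsc. Without hemoglobin-rich barcodes it called 11, and none of the 3 hemoglobin genes, Alas2 and Car2. None of the 14 belonged to the interferon, glycolysis or gelatinase granule lists. The interaction fit recovered only 7 of 198 simulated differences of 4-fold, so this absence says little.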

How the data were processed

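Cells of orthotopic tumors were profiled with a 10x Genomics kit, and the authors deposited UMI counts per gene and barcode, 8 matrices of 19059 genes. Per the labels, reads were mapped to mm10 and counted with Cell Ranger and the data were handled in Seurat; the files' headers give Cell Ranger 7.1.0. Replicates were pooled before deposit, so each group is 1 labelled sample.

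Barcodes with under 200 genes, over 10% mitochondrial UMIs or a log10 genes to log10 UMIs ratio under 0.8 were removed. Doublets were kept, and removal by Scrublet scores (scanpy 1.11.5) was an alternative. Members and lists were chosen with earlier results of these data known. Monocytes held at least 3 of Ccr2, Plac8, F13a1, Ms4a4c and Ms4a6c and under 3 neutrophil markers (Ly6c2 has no probe in these files), microglia and macrophages at least 3 of their markers and 3 C1q UMIs, and tumor barcodes at least 4 UMIs of Olig1, Olig2 and Ptprz1. Immune barcodes held at least 1 UMI of Ptprc or C1q with few tumor UMIs, or were neutrophils.

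UMIs were summed over neutrophils per joined sample and tested with edgeR 4.0.16 (TMM, filterByExpr, quasi-likelihood, Benjamini-Hochberg over all genes kept at 0.05, R 4.3.3). The interaction of treatment and class took the sample as a block. On simulated data the treatment fit recovered 1 of 184 changes of 2-fold and 89 of 193 of 4-fold. The interaction fit recovered 0 of 200 and 7 of 198. Named were the 12 genes per direction with the smallest p, a mean log2 CPM of at least 5, no overlap of the 4 fitted samples and a higher CPM than in other barcodes, the 6 markers, the 3 best expressed members of a list, and Mmp9, Birc2, Birc3 and Xiap. Further list members with values were chosen after their values were seen. Shares were compared by exact permutation. Intervals and floors cover counting error only. Promoters came from RefSeq (GRCm38.p6). DESeq2 1.42.0, other filters, thinning and leaving out samples were alternatives. Scripts ran in Python 3.11.15 with scipy 1.17.1.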

Additional observations from a re-analysis of the deposited data

Results flagged for a closer look

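Vehicle 1 stood apart in genes per neutrophil. Its neutrophils had a median of 580 genes each, against 732.5 to 762 in the other 3 vehicle matrices, while the median UMIs were alike (1110 against 1140 to 1233). It was the 1 distant value among 8 such checks, and chance gives about 1 in 20.

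The treatment effect differed between neutrophils and monocytes (neutrophil minus monocyte, log2, edgeR's interaction test) for 14 genes. Where a class had 0 or 1 UMI in a group, the fitted values below depend on how the fit treats zeros and are not sizes of effect. The fitted effect was larger in neutrophils for Chil3 by 10.15, for Arg1 by 9.68 and for Ctsc by 9.38. Vehicle neutrophils held 0 UMIs of all 3 in the fitted samples, while vehicle monocytes held 132 and 165 UMIs of Chil3 and Xevinapant monocytes 736 and 559. The 5 monocyte-marked barcodes held 50.5% to 88.0% of the Xevinapant neutrophil UMIs of these genes, and without them Arg1 and Ctsc were no longer called.

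The difference was -6.22 for Cxcl2, -4.59 for Rgs1 and -9.33 for Inhba. Monocytes held 5 and 10 UMIs of Rgs1 in vehicle and 90 and 86 in Xevinapant, and 0 UMIs of Inhba in vehicle against 54 and 22.

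Collagen genes gave -8.27 for Col1a2, -13.02 for Col3a1 and -6.74 for Col1a1. Xevinapant 1 and 2 monocytes held 6841 UMIs of Col1a2, against 66 in Xevinapant 3 and 4, and neutrophils held 32 and 3.

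Genes of red blood cells gave -6.83 for Hba-a2, -6.37 for Hbb-bs, -5.95 for Hbb-bt, -5.35 for Alas2 and -5.86 for Car2. Vehicle 4 neutrophils held 495 UMIs of Hba-a2, most of the hemoglobin coming from 1 barcode, and none of these 5 genes was called without hemoglobin-rich barcodes.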

How the results depend on the processing

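The neutrophil share lay higher in Xevinapant under all 17 alternatives, which reuse the same matrices and are not independent. With each matrix as 1 mouse, and among immune barcodes, the groups overlapped (exact permutation p = 0.0571 and 0.3). Leaving out 1 sample at a time moved the difference between 0.313 and 2.02 percentage points. In place of 0 genes, the treatment comparison called 19 without a filter on low counts, 16 with at least 4 markers required (which left 1 vehicle sample against 2), 3 with no C1q UMI allowed, 4 with each matrix as a mouse, 3 with samples under 10 neutrophils kept and 4 without hemoglobin-rich barcodes, and between 0 and 12 when 1 sample was left out (12 without vehicle 4, 10 without vehicle 1 and 3, 10 without Xevinapant 1 and 2). A lone sample was assumed to vary like the other group, and without vehicle 1 and 3 the median of all genes tested was 0.59. Ccl4 was called without vehicle 4, with 1 vehicle sample left (adjusted p = 4.31e-06, edgeR), and stood at -0.59 without vehicle 1 and 3 (adjusted p = 0.702, edgeR). The interaction called 0 genes after thinning, 0 with at least 4 markers and so 1 vehicle sample, 7 with each matrix as a mouse, 8 with small samples kept, and 0 to 13 when 1 sample was left out (0 without vehicle 1 and 3, 0 without vehicle 4). Direction changed for Ifi47 (0.62 without vehicle 1 and 3), Il1b (0.026 with at least 4 markers, 0.0065 without vehicle 4), Cxcl2 (-0.40 with at least 4 markers, -0.087 by matrix, -0.69 without vehicle 4), Inhba (0.40 with at least 4 markers) and Birc3 (-0.31 without vehicle 1 and 3); the cause was not tested. Over 15 alternatives the list medians ran from -1.10 to -0.10 for interferon, 0.36 to 1.17 for glycolysis, 0.15 to 0.99 for hypoxia, 0.37 to 1.52 for gelatinase granules -0.81 to 0.05 for surface genes, -0.88 to 1.14 for cytokines, -0.72 to 0.35 for tumor-adapted and -0.47 to 0.15 for pattern recognition genes. No paired analysis was possible because the labels give each group 1 sample and the joined samples mix matrix numbers. The limits were 2 samples against 2, a batch that coincides with treatment, and 67367 UMIs in vehicle neutrophils.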
